A study of Homo sapiens with 4 samples.

Results

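The genes described here encode the SR proteins (serine- and arginine-rich splicing factors), the hnRNP proteins (heterogeneous nuclear ribonucleoproteins), the SR-like factors TRA2A and TRA2B and the CLK kinases that phosphorylate SR proteins. They were chosen by symbol: SRSF or SFRS followed by a digit, HNRNP or HNRP followed by letters, and CLK1 to CLK4, TRA2A and TRA2B, without pseudogenes. One hnRNP gene that follows this naming was outside the choice and is not analysed here. The choice gave 34 genes with 123 probe sets, of 19775 genes and 54675 probe sets on the array: 10 SR protein genes, 2 TRA2 genes, 4 CLK genes and 18 hnRNP genes. A probe set is a group of short probes read together as 1 value, and most of these genes have several, which can lie in different transcripts of the gene.

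U937 is an established human line of monocyte-like cells, labelled as lymphoma by the submitters. It was profiled on Affymetrix U133 Plus 2.0 arrays, 1 array in each of 4 groups. The combination group received Sonazoid at 0.05% and ultrasound at 0.3 W/cm2 for 1 min. The ultrasound-only group received the same ultrasound, the Sonazoid-only group received the same Sonazoid, and all 3 treated groups were then kept for 3 h at 37 °C. Control cells were untreated, and the labels do not say if they were held for those hours too. Sonazoid is a contrast agent of gas-filled microbubbles. The design crosses ultrasound with Sonazoid, so that each treatment can be set against its absence with and without the other.

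SR proteins bind exons through RNA recognition domains and recruit the splicing machinery, and many hnRNP proteins bind the same transcripts and often oppose exon inclusion. The balance between these families is a classical setting for alternative splicing in all human tissues, blood cells included. CLK kinases phosphorylate the arginine- and serine-rich domain of SR proteins and release them from nuclear speckles. Genes of these families are themselves spliced in several ways, with exons or retained introns that lead to short-lived or nuclear transcripts.

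Promoter sequences are shown for CLK1, CLK4 and HNRNPL, as examples of genes whose signals were higher (CLK1, and CLK4 on 2 of its 3 measured probe sets) or lower (HNRNPL) in sonicated cells. Each is the 300-base window from 250 bases before to 50 bases after the RefSeq start site on assembly GRCh38.p14, printed 5′ to 3′ on the strand of the gene. Capitals mark the core of the cAMP response element, TGACG on either strand, which reads CGTCA where it lies on the opposite strand.
CLK1 (chr2:200864609-200864908, minus strand): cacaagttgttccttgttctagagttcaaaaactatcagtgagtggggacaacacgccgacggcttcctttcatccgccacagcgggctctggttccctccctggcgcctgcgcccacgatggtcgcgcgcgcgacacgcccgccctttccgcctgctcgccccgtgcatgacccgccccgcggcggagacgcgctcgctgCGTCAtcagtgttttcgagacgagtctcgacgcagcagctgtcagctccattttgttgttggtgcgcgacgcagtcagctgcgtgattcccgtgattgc
CLK4 (chr5:178627001-178627300, minus strand): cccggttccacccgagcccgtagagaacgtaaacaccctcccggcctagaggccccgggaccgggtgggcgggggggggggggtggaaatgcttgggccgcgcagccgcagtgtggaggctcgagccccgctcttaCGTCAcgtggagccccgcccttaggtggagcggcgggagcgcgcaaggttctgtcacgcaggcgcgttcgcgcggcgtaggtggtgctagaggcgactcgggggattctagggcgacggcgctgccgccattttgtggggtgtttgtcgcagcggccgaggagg
HNRNPL (chr19:38852298-38852597, minus strand): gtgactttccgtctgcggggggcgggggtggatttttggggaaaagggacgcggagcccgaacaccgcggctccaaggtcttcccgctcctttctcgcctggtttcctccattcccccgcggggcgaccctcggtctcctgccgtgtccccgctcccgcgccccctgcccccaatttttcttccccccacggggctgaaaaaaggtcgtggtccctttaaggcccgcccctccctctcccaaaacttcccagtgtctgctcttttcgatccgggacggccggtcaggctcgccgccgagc
The CLK1 window held 1 such core, beginning 49 bases before the start site. The CLK4 window also held 1, beginning 114 bases before its start site, and the HNRNPL window held none. The table lists 2 start sites for CLK1 and 2 for HNRNPL, of which the first was used. GC content was 62.7% for CLK1, 70.7% for CLK4 and 66.3% for HNRNPL. Of the first-listed promoters of 27305 genes, 25% held TGACG on either strand, against 14 of the 32 member genes found in the table (43.8%). Among these 14 were HNRNPU, lower in sonicated cells on 216855_s_at, and SRSF1, SRSF3, HNRNPA2B1 and TRA2B, level on their brightest probe sets. The core was thus not confined to genes with higher signals. The AP-1 motif TGANTCA was in 7.76% of all windows and in 0 of the 32 member windows. A pair of inverted heat shock units (GAANNTTC or TTCNNGAA, searched on both strands) was in 13.7% of all windows and in the member windows of HNRNPA2B1, HNRNPC and SRSF8. A match describes the letters of the window and is not evidence of binding.

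Each array was multiplied by 1 factor so that all 4 had the same trimmed mean, and the resulting values are called scaled signals. The factors were 0.923 for the combination, 1.07 for ultrasound only, 0.977 for Sonazoid only and 1.04 for control. Scaled signals under 23.8, the median of all scaled values, were set to that floor before log2 differences were taken, so that a fold with 1 side at the floor is a bound. A probe set counted as measured where its mean over the 4 arrays reached the floor. Of the 123 member probe sets 105 were measured, and of all probe sets with 1 gene symbol 22183 were. SRSF12 and HNRNPLL, a regulator of CD45 splicing in T cells, had no measured probe set, and the other 12 probe sets under this limit belonged to genes that had another one. With 1 array in each group there is no replicate check of any difference below, no test was made, and the number of arrays limits the precision. The combination, ultrasound-only and Sonazoid-only arrays share 1 control array, whereas ultrasound only against control and the combination against Sonazoid only share no array. Genes of the myeloid marker list, among them AZU1, ELANE, LYZ and PRTN3, had signals of 100 or more on all 4 arrays for 7 of 10 genes on the array. The same held for 0 of 6 T and NK cell markers, 0 of 4 B cell markers and 0 of 5 epithelial markers. It also held for 0 of 3 erythroid and platelet markers and 1 of 5 fibroblast and endothelial markers (PECAM1). In the myeloid list FCGR1A was under the floor on all 4 arrays. The 3'/5' signal ratio, a measure of RNA integrity, was 1.16 to 1.20 for ACTB and 0.946 to 1.01 for GAPDH over the 4 arrays. Scaled log2 differences from control were -0.07 with the combination, 0.14 with ultrasound only and -0.12 with Sonazoid only for ACTB. As deposited the ACTB value for the combination turned to 0.10. After quantile normalisation the ACTB values for the combination and for Sonazoid only turned to 0.01 and 0.06. For GAPDH the differences were -0.11, 0.10 and -0.16 in the same order, and as deposited the first of these turned to 0.07.

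CLK1 had the largest difference of all members in the ultrasound comparisons. Its only probe set here, 214683_s_at (the suffix _s_at marks probes shared by several transcripts), had a scaled signal of 479.8 with the combination, 449 with ultrasound only, 244 with Sonazoid only and 203 in control cells. Both arrays of sonicated cells lay well above both arrays of cells without ultrasound. The signal was 2.37-fold higher with the combination than in control cells, 2.21-fold higher with ultrasound only than in control cells and 1.97-fold higher with the combination than with Sonazoid only. Against these folds, Sonazoid only was 1.2-fold above control and the combination 1.07-fold above ultrasound only. CLK1 was the only member probe set at 2-fold or more above control with the combination, where 1.53% of all measured probe sets reached that size, and with ultrasound only, where 1.69% did.

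CLK4, the kinase closest in sequence to CLK1, was read by 3 measured probe sets that did not run the same way. Probe set 210346_s_at had 444 with the combination and 409 with ultrasound only, against 287 with Sonazoid only and 307 in control cells. This was 1.45-fold above control with the combination, 1.33-fold above control with ultrasound only and 1.55-fold above Sonazoid only with the combination. As deposited, without scaling, its log2 difference between the combination and control was 0.71, past 1.5-fold, where the scaled value was 0.54. Probe set 228751_at had 119 with the combination and 121 with ultrasound only, against 89.9 with Sonazoid only and 92.4 in control cells, which again put both sonicated arrays above both others. Probe set 241403_at gave the opposite order, with 55.0 and 49.1 on the combination and ultrasound-only arrays and 71.5 and 69.6 on the Sonazoid-only and control arrays. None of the 3 differed by more than 1.07-fold between Sonazoid only and control.

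CLK2 and CLK3 were not called at 1.5-fold in either ultrasound comparison, 1 value of CLK3 being a bound. CLK2 (203229_s_at) had 766 with the combination, 663 with ultrasound only, 711 with Sonazoid only and 827 in control cells, and its sonicated arrays did not lie on 1 side of the others. CLK3 (202140_s_at) had 733, 789.6 and 692 with the combination, ultrasound only and Sonazoid only, against 588 in control cells, so that all 3 treated arrays lay above control and both sonicated arrays above both others. Its dimmer probe set 238072_at had 42.7, 33.9 and 33.2 on the same arrays against 22.3 in control cells, which is under the floor, and was at least 1.79-fold higher with the combination than in control cells. On it too both sonicated arrays were above both others, though not as deposited or after quantile normalisation. Over the 7 measured CLK probe sets the median log2 difference was 0.36 for the combination against control, 0.42 for ultrasound only against control, 0.04 for Sonazoid only against control and 0.36 for the combination against Sonazoid only. Medians over all measured probe sets were within 0.01 of 0 in these comparisons.

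**Figure D1:**
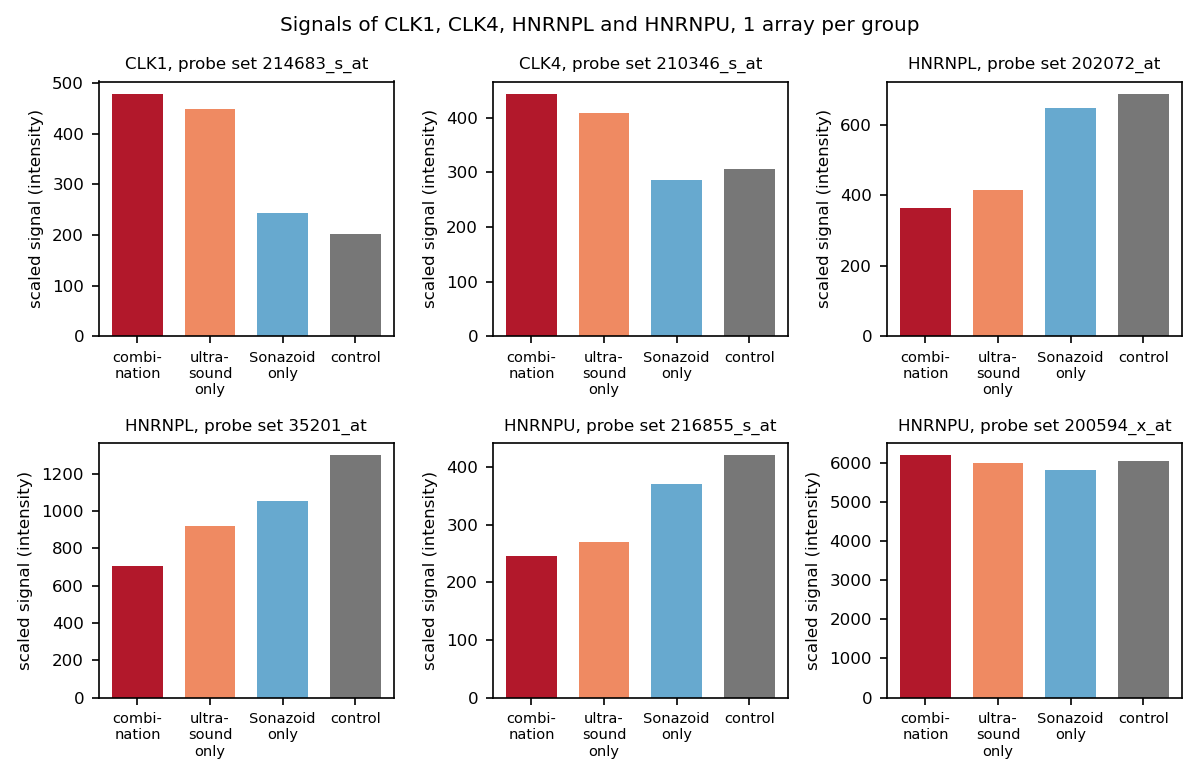
Scaled signal (linear intensity, axis from 0) on the 4 arrays, 1 bar per group, for probe sets of CLK1, CLK4, HNRNPL and HNRNPU. CLK1 stood at 479.8 and 449 on the sonicated arrays against 244 and 203 on the others, both HNRNPL probe sets were lowest on the sonicated arrays, and HNRNPU differed between its probe sets.

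HNRNPL, which binds CA repeats and can enhance or silence exons, had the lowest mean of both ultrasound differences among all members, and both of its probe sets were lower in sonicated cells. Probe set 202072_at had 363 with the combination and 414 with ultrasound only, against 646 with Sonazoid only and 688 in control cells. It was 1.90-fold lower with the combination than in control cells, 1.66-fold lower with ultrasound only than in control cells and 1.78-fold lower with the combination than with Sonazoid only. The Sonazoid-only array was 1.07-fold below control. Probe set 35201_at had 706 with the combination, 921 with ultrasound only, 1053 with Sonazoid only and 1300.3 in control cells. The combination array was again the lowest, with a log2 difference from control of -0.88, and the differences were -0.50 for ultrasound only from control, -0.58 for the combination from Sonazoid only and -0.30 for Sonazoid only from control.

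HNRNPU, also known as scaffold attachment factor A for its binding to chromatin and nuclear RNA, had 5 measured probe sets of which 1 stood apart. Probe set 216855_s_at had 246 with the combination and 270.1 with ultrasound only, against 372 with Sonazoid only and 421 in control cells. It was 1.71-fold lower with the combination than in control cells, 1.56-fold lower with ultrasound only than in control cells and 1.51-fold lower with the combination than with Sonazoid only; the last of these, a log2 difference of -0.59, came to -0.51 as deposited and to -0.57 after quantile normalisation, under 1.5-fold. Probe set 200594_x_at (the suffix _x_at marks probes that may bind other genes) had 6189.8, 5985 and 5817 with the combination, ultrasound only and Sonazoid only, against 6049 in control cells. The remaining 200593_s_at, 225805_at and 235603_at differed from control by at most 1.19-fold. Different probe sets of HNRNPU, which can read different transcripts, thus gave different values.

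Counts over all members put these genes in proportion. At 1.5-fold, with the combination against control, 6 of the 105 measured member probe sets were higher, where 6.35% of all measured probe sets were, and 8 were lower, where 5.21% were, 14 in all, where 11.6% were. As deposited the split was 10 higher and 4 lower, but there the median log2 difference of all probe sets was 0.16. The higher ones belonged to CLK1, CLK3, HNRNPA1, SRSF1 and SRSF3, and the lower ones to HNRNPH3, HNRNPL, HNRNPM, HNRNPU, HNRNPUL1, SRSF4 and SRSF6. With ultrasound only against control 2 were higher (CLK1 and HNRNPA1), where 6.85% of all were, and 7 were lower, where 5.59% were, 9 in all, where 12.4% were. Sonazoid only against control gave 2 higher and 2 lower, where 4.1% and 4.75% of all were, 4 in all, where 8.85% were. As deposited these were 5 and 1, with a median log2 difference of all probe sets of 0.09. The combination against ultrasound only gave 4 higher and 0 lower, where 5.54% and 6% of all were, 4 in all, where 11.5% were. The combination against Sonazoid only gave 4 higher and 3 lower, where 6.23% and 4.94% of all were, 7 in all, where 11.2% were. The 14 with the combination are 13.3% of the members, near the share over all probe sets. The 9 with ultrasound only are 8.57%, below the share over all, and in the other comparisons the members' share was below it too.

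In both ultrasound comparisons, which share no array, 1 member probe set was at least 1.5-fold higher (CLK1), where 1.73% of all measured probe sets were. The 2 that were at least 1.5-fold lower in both were HNRNPL 202072_at and HNRNPU 216855_s_at, where 0.825% of all were. In both Sonazoid comparisons no member reached 1.5-fold the same way, where 0.591% of all were higher and 0.739% lower.

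**Figure D2:**
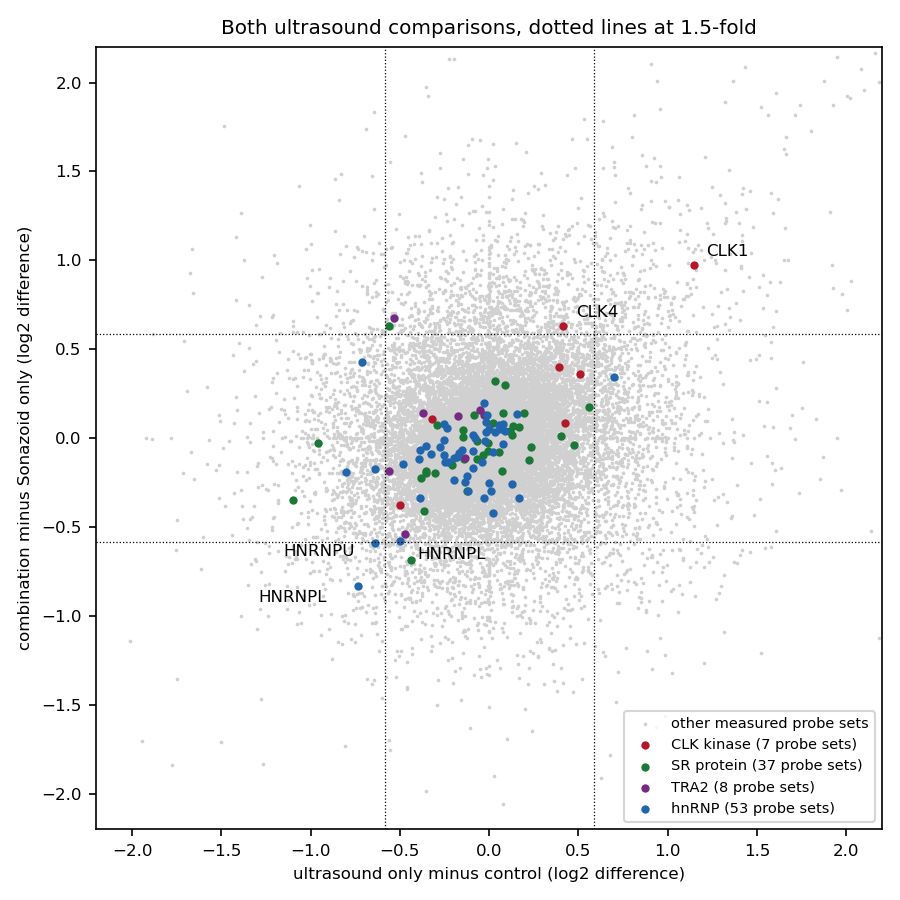
Difference between the combination and Sonazoid only (log2, vertical axis) and between ultrasound only and control (log2, horizontal axis) for each measured probe set, members coloured by family and all others in grey; dotted lines mark 1.5-fold, and 34 other probe sets lie outside the axes. CLK1 lies past both lines in the upper right, and HNRNPL 202072_at and HNRNPU 216855_s_at lie past both in the lower left. HNRNPL 35201_at, at -0.50 and -0.58, stays short of both, and most members lie close to the centre.

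The differences were spread unevenly over signal levels. These levels were grouped after the values had been seen. Some probe sets share a gene and all share the same 4 arrays, so the shares below are a description only. Over all levels 13.3% of members reached 1.5-fold with the combination against control, where 11.6% of all measured probe sets did. Of the 35 measured member probe sets with a mean of at least 100 times the floor, 0 reached 1.5-fold in any of the 5 comparisons, where 0.0636% to 0.763% of all probe sets of that level did. Between 10 and 100 times the floor (means of 238 to 2383), 7 of 44 member probe sets (15.9%) reached 1.5-fold with the combination against control, where 2.96% of 8347 probe sets of that level did. They were CLK1, HNRNPA1, HNRNPH3, HNRNPUL1, HNRNPU 216855_s_at and both HNRNPL probe sets. With ultrasound only against control 6 of 44 (13.6%) did, where 3.32% of all of that level did. The combination against Sonazoid only gave 4 of 44 (9.09%), for CLK1, CLK4, HNRNPL and HNRNPU, where 2.31% did. Sonazoid only against control and the combination against ultrasound only gave 0 of 44, where 0.611% and 1.93% did. Within 1 to 4 times the floor 6 of 18 member probe sets reached 1.5-fold with the combination against control, where 24.8% of all did, so a difference of this size is common among dim probe sets. In each other comparison the share of these dim members was lower, 11.1% to 16.7%, where 21.8% to 26.2% of all did.

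**Figure D3:**
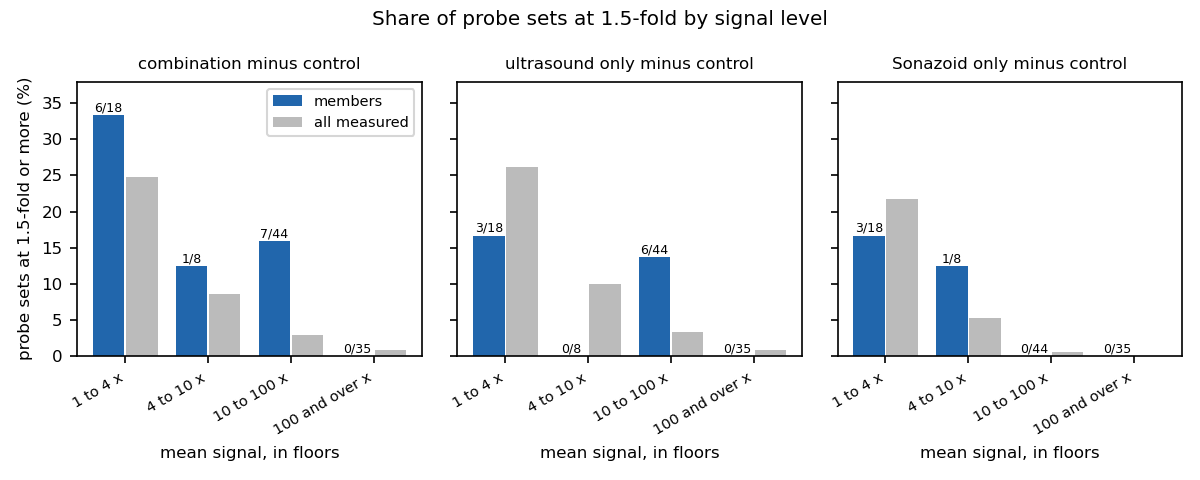
Share of measured probe sets (%) at 1.5-fold or more either way in 3 comparisons against control, by mean scaled signal in multiples of the floor, for members (blue, counts above the bars) and for all measured probe sets (grey). Members at 10 to 100 floors reached 15.9% with the combination and 13.6% with ultrasound only, and 0 of 35 at 100 floors or more passed in any of the 3. The signal levels were grouped after the values had been seen.

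SR protein genes were mostly level on the probe set with the highest signal of each gene. SRSF1, the best studied SR protein, had 8573 with the combination, 8829 with ultrasound only, 9057 with Sonazoid only and 8492 in control cells on 211784_s_at. SRSF3, the smallest SR protein, had 9857, 10546 and 9419 on the treated arrays in the same order, against 9631 in control cells, on 208672_s_at. SRSF7, which carries a zinc knuckle beside its RNA recognition domain, had 8801, 9353 and 8578 against 8632 in control cells on 214141_x_at. All 3 genes stayed within 1.10-fold of control on these probe sets. SRSF5 (212266_s_at) had 3753, 3661 and 3537 with the combination, ultrasound only and Sonazoid only, against 3602 in control cells. SRSF4 (201696_at) had 2659, 2871 and 2795 against 2884 in control cells, and SRSF6 (208804_s_at) had 1357, 1184 and 1354 against 1311. These 3 genes likewise differed from control by at most 1.11-fold on these probe sets. SRSF10, an SR protein known as a splicing repressor when dephosphorylated, had 2763, 2551 and 3003 against 2812 in control cells on 206095_s_at. SRSF11 (200686_s_at) had 5273 with the combination, 6079 with ultrasound only, 6490.0 with Sonazoid only and 6624 in control cells, the combination being 1.26-fold below control. SRSF8 (214789_x_at) had 1399.9 and 1286 on the combination and ultrasound-only arrays and 1607 and 1643 on the Sonazoid-only and control arrays.

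All 4 measured SRSF8 probe sets had their lowest signals on the sonicated arrays (3 of 4 as deposited, without 228760_at), with log2 differences of -0.35, -0.03, -0.36 and -0.36 for ultrasound only from control and -0.20, -0.10, -0.18 and -0.41 for the combination from Sonazoid only, in the order 214789_x_at, 228760_at, 213152_s_at and 238929_at. None of the 4 reached 1.5-fold in any comparison.

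Dimmer probe sets of the same SR genes gave other values. SRSF1 229246_at had 72.2, 51.3 and 74.3 with the combination, ultrasound only and Sonazoid only, against 36.9 in control cells, and was 2.01-fold above control with Sonazoid only, where 0.771% of all measured probe sets were 2-fold higher. SRSF1 201741_x_at had 106, 70.3 and 85.8 against 66.2 in control cells. SRSF1 239384_at was low on the ultrasound-only array alone, at 23.9, against 47.3 with the combination, 48.3 with Sonazoid only and 46.6 in control cells. Thus 8 probe sets of this 1 gene ranged from -0.96 to 0.47 in log2 difference between ultrasound only and control. SRSF3 232392_at had 210.0, 185 and 208 on the treated arrays against 139.6 in control cells, the control array being lowest. SRSF4 239512_at had 43.4, 36.5 and 55.3 against 78.3 in control cells, and its ultrasound-only value was 2.14-fold below control, where 1.09% of all measured probe sets were 2-fold lower. SRSF4 242837_at had 170.4 with the combination, 85.4 with ultrasound only, 110.2 with Sonazoid only and 126 in control cells, so that the combination array was highest and the ultrasound-only array lowest. SRSF6 206108_s_at had 42.7 and 48.9 on the combination and ultrasound-only arrays, against 68.6 and 66.4 on the Sonazoid-only and control arrays. With a floor 4 times as high, the differences of SRSF4 239512_at, SRSF6 206108_s_at and CLK3 238072_at became 0, since all their values lie under it.

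TRA2A and TRA2B, the human counterparts of Drosophila transformer-2, bind purine-rich exonic enhancers. TRA2B (200893_at) had 9557 with the combination, 8455 with ultrasound only and 8578 with Sonazoid only, against 8760.0 in control cells, a difference from control of at most 1.09-fold. TRA2A (204658_at) had 914, 934 and 988 on the treated arrays against 1026 in control cells, at most 1.12-fold. All 8 measured TRA2 probe sets were below control with ultrasound only, where 10982 of all 22183 measured probe sets were. Their median log2 difference was -0.28 (-0.27 as deposited), whereas 4 of 8 were below control with the combination. The other ultrasound comparison, the combination against Sonazoid only, did not show this decrease: its TRA2 median was 0.12, with 3 of 8 below 0. TRA2A was the only member gene with probe sets at 1.5-fold in opposite directions in the same comparison, Sonazoid only against control. Its 213593_s_at had 100.5, 67.3 and 146 with the combination, ultrasound only and Sonazoid only, against 93.2 in control cells, a log2 difference of 0.65 for Sonazoid only. Its 213575_at had 43.6, 31.7 and 27.3 against 46.0 in control cells, a log2 difference of -0.75 for Sonazoid only.

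The hnRNP genes as a family lay slightly lower in sonicated cells, though the combination against Sonazoid only depended on the scaling. Over 53 measured hnRNP probe sets the mean of both ultrasound differences was below 0 for 40, where 11261 of all 22183 measured probe sets were. The hnRNP median was -0.13 on the log2 scale, where the median of all measured probe sets was -0.00. It came to -0.11 with 40 below 0 as deposited, and to -0.14 with 46 below 0 after quantile normalisation. These probe sets share the same 4 arrays and many share a gene, so they are not independent observations. For ultrasound only against control the hnRNP median was -0.12 and 38 of 53 were below 0, where 10982 of 22183 were. For the combination against Sonazoid only the hnRNP median was -0.08 and 37 of 53 were below 0, where 11255 of 22183 were. As deposited this median was 0.00 with 26 below 0, where the median of all probe sets was 0.07. For the combination against control the hnRNP median was -0.06, but 0.11 as deposited, where the median of all probe sets was 0.16. Sonazoid only against control gave -0.04, and 0.05 as deposited. For 37 SR protein probe sets the medians were 0.03 for the combination, -0.03 for ultrasound only and 0.03 for Sonazoid only, each against control, and 0.21, -0.08 and 0.12 as deposited. Among all 105 member probe sets, 36 had both sonicated arrays below both others (34.3%), where 21.3% of all measured probe sets did, and 18 had both above both others (17.1%), where 19.9% did. As deposited 24 member probe sets had both sonicated arrays below the others (22.9%, where 13.8% of all did) and 9 above (8.57%, where 19.5% did).

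**Figure D4:**
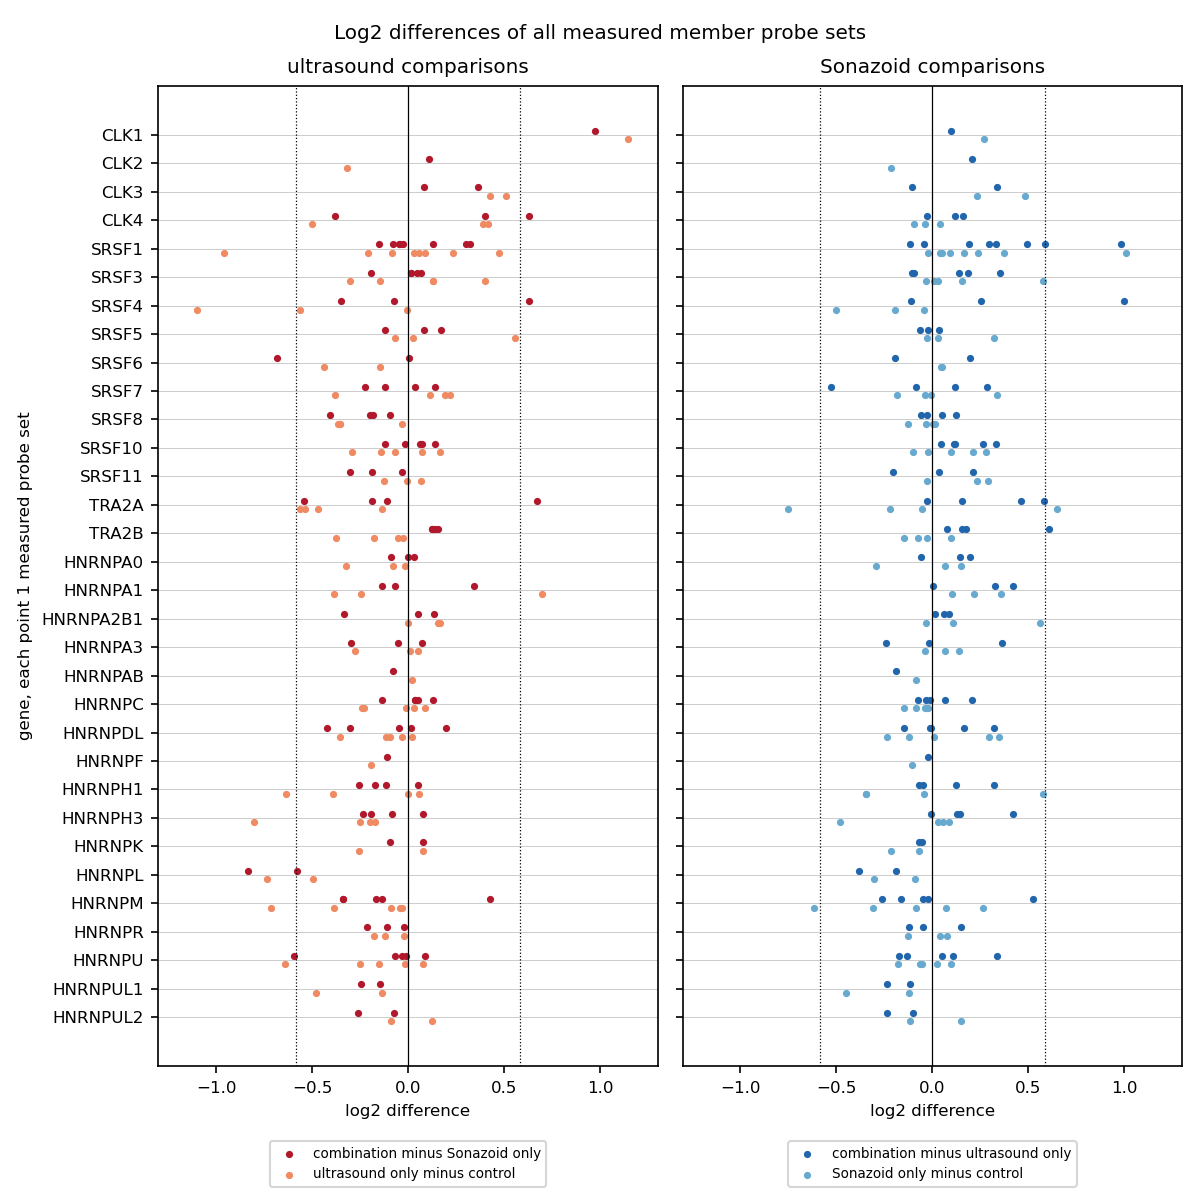
Log2 difference of every measured member probe set by gene, for the ultrasound comparisons (left) and the Sonazoid comparisons (right), 1 point per probe set and comparison; dotted lines mark 1.5-fold. CLK1 lies far to the right and both HNRNPL probe sets to the left in the ultrasound comparisons, and genes such as SRSF1, SRSF4 and TRA2A have probe sets on both sides of 0.

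Genes of abundant hnRNP proteins, which coat nascent transcripts, had mostly level signals on the probe sets named here. HNRNPA2B1 (205292_s_at) had 11244 with the combination, 11135 with ultrasound only and 10853 with Sonazoid only, against 11126 in control cells. HNRNPC, which binds uridine tracts, had 8790.2, 8855 and 8041 against 8915 in control cells on 214737_x_at. HNRNPK, which binds cytidine-rich sequences, had 8866, 9317 and 8395 against 8818 in control cells on 200775_s_at. These 3 genes stayed within 1.11-fold of control on these probe sets. HNRNPR (208766_s_at) had 8229.6, 8962 and 8339 against 9106 in control cells, and HNRNPAB (201277_s_at) had 7286, 8304 and 7700.3 against 8176. HNRNPA3 (211932_at) had 3898, 3940.3 and 3701 against 3799 in control cells. HNRNPM (200072_s_at), which binds GU-rich sequences, had 5682, 6358 and 6375 against 6761 in control cells. HNRNPDL (201993_x_at) was highest with Sonazoid only, with 5115, 5672 and 6844 on the treated arrays against 5589 in control cells, while its 209067_s_at was lowest there, at 4653 against 5480 in control cells. HNRNPA0 (201054_at), which binds AU-rich elements, had 4002, 3489 and 3911 on the treated arrays against 3531 in control cells. HNRNPF (201376_s_at), a relative of HNRNPH1, had 2087, 2123 and 2254 against 2430.2 in control cells, and HNRNPUL2 (225405_at) had 915, 982 and 964 against 1044. None of these genes reached 1.25-fold from control on the probe set named. Other probe sets of some of them differed more. For HNRNPM the log2 difference between the combination and control ranged from -0.65 to -0.06 over its measured probe sets. For HNRNPA0 that range was -0.38 to 0.18. The HNRNPA2B1 probe sets ranged from -0.04 to 0.56 for Sonazoid only against control. Of all 105 member probe sets, 54 (51.4%) stayed within 1.25-fold in all 5 comparisons, where 40.7% of all measured probe sets did. Among those with a mean of at least 95.3 the shares were 53 of 87 (60.9%) and 56.8%.

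HNRNPA1, a repressor of exon inclusion, was read by 3 measured probe sets. Its 214280_x_at had 2419 with the combination, 2415 with ultrasound only and 1908 with Sonazoid only, against 1490.4 in control cells, 1.62-fold above control in both sonicated groups and 1.28-fold with Sonazoid only. The combination exceeded Sonazoid only by 1.27-fold. Its 222040_at had 119, 95.2 and 131 against 113 in control cells, and its 221919_at had 96.6, 72.2 and 101 against 94.3. The higher values were therefore those of the _x_at probe set, and HNRNPA1 has many near-identical processed copies in the genome, so the origin of its signal is uncertain.

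The G-tract binding proteins HNRNPH1 and HNRNPH3 differed among their probe sets as well. HNRNPH1 213619_at had 11054, 11440.2 and 10659 with the combination, ultrasound only and Sonazoid only, against 10980.4 in control cells, all within 1.04-fold of control. Its 201031_s_at had 3163, 3324 and 3428 against 4362 in control cells, and its 213470_s_at had 374, 343 and 421 against 534, so that on both the control array was highest. HNRNPH3 210110_x_at had 751, 687 and 859 against 1197 in control cells, 1.59-fold below control with the combination and 1.74-fold below with ultrasound only. HNRNPH3 208990_s_at, by contrast, had 2339, 2116 and 2477 against 2380.5 in control cells. HNRNPUL1, a relative of HNRNPU, had 1687, 1829.7 and 1867 against 2555 in control cells on 208713_at, 1.51-fold below control with the combination. On 209675_s_at it had 422, 497 and 499.8 against 545. On 201031_s_at, 213470_s_at, 210110_x_at and both HNRNPUL1 probe sets the control array was above all 3 treated arrays, and a comparison of 3 treated arrays with 1 shared control array counts that array 3 times. In all, 5 member probe sets (2 of HNRNPH1, and 1 each of HNRNPH3, HNRNPUL1 and SRSF4) were at least 1.25-fold below control on all 3 treated arrays, where 2.92% of all measured probe sets were, and 4 (CLK3, HNRNPA1, SRSF1 and SRSF3) were at least 1.25-fold above, where 3.25% were.

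The departure from additivity takes the ultrasound difference without Sonazoid away from the ultrasound difference in its presence, on the log2 scale, and is 0 where both treatments simply add. It was 1.5-fold or more above 0 for 6 member probe sets, where 9.07% of all measured probe sets were, and 0 were as far below 0, where 9.05% of all were. The largest were 1.21 for TRA2A 213575_at and 1.19 for SRSF4 242837_at. HNRNPM 233605_x_at followed with 1.14, SRSF1 239384_at with 0.93, SRSF4 239512_at with 0.75 and HNRNPH3 210110_x_at with 0.61. For CLK1 the departure was -0.17, for HNRNPL -0.10 on 202072_at and -0.08 on 35201_at, and for HNRNPU 216855_s_at 0.05.

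Other genes of the splicing machinery were taken from 6 lists: SR protein kinases, SR-related proteins, other splicing regulators, U1 and U2 snRNP with branch point factors, the tri-snRNP and catalytic spliceosome, and the exon junction complex with nonsense-mediated decay. They hold 128 genes, of which 114 had a measured probe set, 308 probe sets in all. In both ultrasound comparisons 3 of the 308 were 1.5-fold higher, where 1.73% of all measured probe sets were. In the same comparisons 1 was 1.5-fold lower, where 0.825% of all were. The higher ones were RSRP1, KHSRP and MBNL2. RSRP1, an arginine- and serine-rich protein, had 1428 with the combination and 1372 with ultrasound only, against 925 with Sonazoid only and 905 in control cells on 209007_s_at, 1.58-fold and 1.52-fold above control. KHSRP, a regulator of splicing and mRNA decay, had 228 with the combination, 347 with ultrasound only, 136 with Sonazoid only and 231 in control cells on 212303_x_at, so that the combination array did not exceed control. MBNL2, a muscleblind family regulator, had 42.1 and 38.6 on the combination and ultrasound-only arrays against 21.0 and 23.8 on the Sonazoid-only and control arrays, both at the floor. The lower one was a dim probe set of SRRM2, a speckle scaffold protein, with 5.78 and 6.68 on the sonicated arrays against 44.1 and 40.3 on the Sonazoid-only and control arrays, a bound of at least 1.69-fold for each sonicated array against control. Among the SR protein kinases, DYRK2 (202971_s_at) had 167 and 169 on the combination and ultrasound-only arrays against 244 and 203 on the Sonazoid-only and control arrays. Among spliceosome genes, CDC5L (209057_x_at) had 149 and 193 on the combination and ultrasound-only arrays against 281 and 289 on the Sonazoid-only and control arrays. SF3A1, a U2 snRNP subunit, had 1132, 1448 and 1311 with the combination, ultrasound only and Sonazoid only, against 2382 in control cells on 201356_at, where the control array was highest. Its second probe set 227516_at had 297, 319.9 and 414 against 381, and there the Sonazoid-only array was highest. Over all 308 probe sets, 15 were 1.5-fold higher and 7 lower with the combination against control, where 6.35% and 5.21% of all measured probe sets were. With ultrasound only against control 9 were higher and 19 lower, where 6.85% and 5.59% of all were. With Sonazoid only against control 5 were higher and 13 lower, where 4.1% and 4.75% of all were. The combination against ultrasound only gave 14 higher and 6 lower, where 5.54% and 6% of all were. The combination against Sonazoid only gave 7 and 8, where 6.23% and 4.94% of all were. The SR-related proteins, 91 probe sets, had 6 higher and 2 lower with the combination against control, where 6.35% and 5.21% of all were. They had 3 higher and 7 lower with ultrasound only against control, where 6.85% and 5.59% of all were. The U1 and U2 snRNP genes, 48 probe sets, had 2 and 1 in the first of these comparisons and 0 and 4 in the second.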

How the data were processed

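Gene expression in U937 cells was measured on 4 arrays, 1 per group, assigned by the submitters' agent label. Per the labels' protocols, DNase-treated total RNA was amplified from the 3' end with the manufacturer's one-cycle kit and labelled with biotin. The authors deposited 1 linear intensity per probe set for every array, between 0.0486 and 21728. No source used here gives the summarisation algorithm or a scaling target of the authors. After trimming 2% at each end, array means differed 1.16-fold, and each array was scaled to the common trimmed mean. As deposited, the median log2 difference of all measured probe sets was 0.16 for the combination against control and 0.21 for the combination against ultrasound only, so differences were read on the scaled values. Symbols came from the platform annotation, brought up to date by Entrez identifier from RefSeq annotation of GRCh38.p14. Probe sets with several symbols were left out, 14 of them matching the naming rule, and genes read only by such probe sets are not analysed here. Every per-sample column was used.

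Values on all 4 arrays were printed by rule for member probe sets at 1.5-fold in both ultrasound or both Sonazoid comparisons, for the brightest probe set of each SRSF, TRA2 and CLK gene and of each hnRNP gene among the 10 brightest, for the 5 highest and 5 lowest means of both ultrasound differences, and for genes with opposite probe sets. Further probe sets of those genes, the other hnRNP genes and RSRP1 were named after their values were seen, as were the signal-level groups and the counts at 1.25-fold. From the 6 splicing lists up to 3 probe sets each could be named. Members and lists were chosen with earlier results of these data known. Alternatives were no scaling, quantile normalisation, a floor 4 times as high, an offset of 16 in place of the floor, other filters, 1 probe set per gene, gene-specific probe sets only (without _s_at and _x_at) and 2-fold in place of 1.5-fold. The count procedure was tested on simulated data. Python 3.11.15, numpy 2.4.6, pandas 2.3.3 and matplotlib 3.10.9 were used.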

Additional observations from a re-analysis of the deposited data

How the results depend on the processing

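The number of arrays, 1 per group, limits every value, and no paired analysis was possible because no group has more than 1 array. Counts of member probe sets at 1.5-fold depended on the setting, partly because some settings test fewer probe sets (87 with the stricter floor, 32 with 1 per gene, 47 that are gene-specific). No share over all probe sets stands beside the counts below, so they show only how the member counts moved. The combination against control, 14 in all, gave 8 with the stricter floor, 4 with 1 per gene, 8 among gene-specific probe sets and 1 at 2-fold. Ultrasound only against control, 9, gave 2 with 1 per gene, 3 among gene-specific ones and 2 at 2-fold. Sonazoid only against control, 4, gave 1 with the stricter floor, 1 with the offset, 0 with 1 per gene, 2 among gene-specific ones and 1 at 2-fold. The combination against ultrasound only, 4, gave 10 as deposited, 2 after quantile normalisation, 1 with the stricter floor, 2 with the offset, 0 with 1 per gene and 0 at 2-fold. The combination against Sonazoid only, 7, gave 3 with the offset, 2 with 1 per gene, 3 among gene-specific ones and 0 at 2-fold. In both ultrasound comparisons 3 became 1 with 1 per gene, 1 among gene-specific ones and 0 at 2-fold, and in both Sonazoid comparisons 0 became 2 as deposited. The departure count of 6 became 2 with the stricter floor, 0 with 1 per gene and 3 at 2-fold. For the other splicing lists 4 in both ultrasound comparisons became 2 with the stricter floor, 2 with the offset, 1 with 1 per gene, 1 among gene-specific ones and 0 at 2-fold. The member median was 0.15 as deposited for the combination against control (scaled -0.02) and 0.26 for the combination against ultrasound only (scaled 0.05). Beyond the shift of all probe sets, the cause of these moves was not tested. Of the 165 differences of named probe sets, 162 stayed on their side of 1.5-fold as deposited, 164 after quantile normalisation, 162 with the offset and 160 with the stricter floor. The sign of 52 turned as deposited and that of 17 after quantile normalisation, none of which was over 0.21 and 0.08 in scaled size, and no sign turned with the offset or the stricter floor. The CLK1 difference ranged from 1.18 to 1.42 for the combination against control and from 1.09 to 1.15 for ultrasound only against control over these settings. For HNRNPL 202072_at the ranges were -0.92 to -0.75 and -0.78 to -0.71.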

Other observations

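Among probe sets of the other splicing lists, the following were among the 3 of their list farthest from 0 in the mean of both ultrasound differences. SMG5, a nonsense-mediated decay factor, had 118 with the combination, 180.4 with ultrasound only and 154 with Sonazoid only, against 81.4 in control cells on 212147_at. All 3 treated arrays lay above control, and the ultrasound-only array was highest. XAB2, a spliceosome protein also tied to transcription-coupled repair, had 29.8, 52.3 and 37.7 in the same order against 89.3 in control cells on 218110_at, a dim probe set with the control array highest. DHX38, a helicase of the catalytic spliceosome, had 83.9 with the combination, 124 with ultrasound only, 128 with Sonazoid only and 156 in control cells on 209178_at. U2AF1, which recognises the end of the intron, had 87.6, 54.5 and 78.7 against 121 in control cells on 231904_at. LUC7L3, related to a yeast U1 snRNP protein, had 71.1 and 75.2 on the combination and ultrasound-only arrays against 135 with Sonazoid only and 101 in control cells on 229193_at.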
